A study of Mus musculus with 22 samples.

Results

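The 42 genes described here act in the G2 phase of the cell cycle and in mitosis. They were taken by gene symbol from a fixed list and followed by Ensembl ID in RNA-Seq and Ribo-Seq of cultured mouse cortical neural stem cells (NSCs). All 42 were found among the 22623 genes of the RNA-Seq files, and all 42 are among the 20396 genes present in both data sets. By role they comprise 7 cyclins, Cdk1 and its activators, 6 mitotic kinases and chromosomal passenger proteins, 8 kinetochore and spindle checkpoint proteins, 11 spindle and cytokinesis proteins, 6 proteins of mitotic chromosome structure and 4 proteins of anaphase onset.

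The study asked how the RNA-binding proteins Msi1 and Msi2 (Musashi) act on mRNA abundance and translation. RNA-Seq of polyA-selected RNA was available from 14 libraries and Ribo-Seq, the sequencing of ribosome-protected mRNA fragments (footprints), from 8, making 22 samples. All NSCs came from cortices of embryos of 129SvJae mice and were grown in N2 medium with EGF, bFGF and laminin.

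The 3 kinds of cells called tet lines here were given doxycycline (Dox, 1 µg/ml) or none and collected at 72 hours. KH2 control cells carry no Msi transgene, cells labelled MSI1 carry a Dox-inducible Msi1 allele (tetO-Msi1) and cells labelled MSI2 a Dox-inducible Msi2 allele (tetO-Msi2). The floxed lines C1 and C4 are floxed at both Msi1 and Msi2 and were given 4-hydroxytamoxifen (4-OHT) or none, with a time point of 48 hours. C4 carries a tamoxifen-inducible Cre and C1, its control, carries no Cre. RNA-Seq covered all 5 lines with and without treatment at E12.5 (embryonic day), and untreated KH2 and both treatments of tetO-Msi1 at E13.5. Footprints were sequenced in the same lines at E12.5 except tetO-Msi2. Each condition had 1 library, except that untreated tetO-Msi1 cells of E13.5 had a technical pair, which was summed. Each floxed line is a single line, so a difference between C1 and C4 cannot be told apart from a difference between lines.

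Entry into mitosis is driven by Cdk1 bound to cyclin B, which Cdc25 phosphatases switch on, while Plk1 and the Aurora kinases drive spindle assembly and chromosome attachment. The spindle checkpoint proteins hold back Cdc20 and the anaphase-promoting complex until the chromosomes are attached, after which securin (Pttg1) is destroyed and separase (Espl1) cuts cohesin. Transcription of many of these genes is low in resting and G1 cells and rises in G2 and mitosis, so that their mRNA level in a culture is widely used as a measure of how many cells are cycling. In a bulk library fewer cycling cells and less mRNA per cell cannot be told apart.

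Promoters of the members are described as background, and a part of their elements in the changes below was not tested. The element TTTGAA or TTCGAA (the cell cycle genes homology region) and the CCAAT box, which binds NF-Y, are known elements of G2/M promoters. The letters of both were searched on both strands from 250 bases upstream to 50 bases downstream of the start site in RefSeq promoters (GRCm38.p6), which were matched for 34 of the 42 members. The first was present in 27 of 34 member promoters (79.4%) and in 21.7% of 27025 genes. CCAAT was present in 29 of 34 (85.3%) and in 41.1% of all genes, and both together in 26 of 34 (76.5%) against 8.61%. Among DNA replication and G1/S genes, a list kept apart from the members, TTTGAA or TTCGAA was present in 7 of 35 promoters (20%) and CCAAT in 22 of 35 (62.9%). Among further mitosis and G2/M genes outside the members, each of the 2 elements was present in 35 of 57 promoters (61.4%). Of the members, Birc5, Mad2l1, Nusap1 and Pttg1 held neither element, while Bub3 held both. All of these are matches of letters, not bound sites.

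The 100 bases before the start site follow for 6 members of 4 roles, 3 of them (Cdc20, Ube2c and Espl1) acting at anaphase onset. Bub3 and Prc1 also had both elements within 100 bases of a start site and are not shown. The 6 windows each hold both elements, with the elements or their reverse complements in capitals. They are the windows of Cdk1 (chr10:69352913-69353012, minus strand), Cdc20 (chr4:118437344-118437443, minus), Top2a (chr11:99024190-99024289, minus), Ube2c (chr2:164769829-164769928, plus), Kif11 (chr19:37376282-37376381, plus) and Espl1 (chr15:102296193-102296292, plus), all in GRCm38 and 5′ to 3′ on the strand of the gene.
Cdk1: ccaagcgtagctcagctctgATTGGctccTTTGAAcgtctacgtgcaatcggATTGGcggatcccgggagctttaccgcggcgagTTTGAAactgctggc
Cdc20: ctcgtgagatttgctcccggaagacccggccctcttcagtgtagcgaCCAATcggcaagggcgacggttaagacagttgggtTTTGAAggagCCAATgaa
Top2a: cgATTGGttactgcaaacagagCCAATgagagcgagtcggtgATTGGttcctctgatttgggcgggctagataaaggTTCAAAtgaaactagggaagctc
Ube2c: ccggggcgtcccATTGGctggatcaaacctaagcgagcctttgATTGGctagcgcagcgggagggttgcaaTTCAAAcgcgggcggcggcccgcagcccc
Kif11: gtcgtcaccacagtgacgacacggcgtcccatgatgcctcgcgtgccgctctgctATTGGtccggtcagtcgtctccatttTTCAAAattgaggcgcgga
Espl1: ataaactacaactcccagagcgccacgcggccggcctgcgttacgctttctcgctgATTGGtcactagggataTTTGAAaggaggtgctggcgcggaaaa
In these 6 windows the TTTGAA nearest the start began 15 to 29 bases before it, and the next CCAAT upstream began 17 to 35 bases further away. In Cdk1 the distances were 15 and 33 bases, and in Espl1 27 and 17 bases.

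RNA-Seq libraries held 7889966 to 22248145 counted reads in the tet lines at E12.5, 18956807 to 50388807 at E13.5 and 45750593 to 58435172 in the floxed lines, and members had 50 to 108094 reads each. Footprint counts were lower, with 657288 to 6381242 reads per library and 0 to 6707 per member. In the untreated KH2 Ribo-Seq library the 10 highest genes held 80.4% of the reads, against 5.66% to 30.9% in the others. Msi1 rose from 128.8 to 700.9 at E12.5, in TMM-scaled RPKM computed from the deposited counts, with Dox in tetO-Msi1 cells, and from 181.6 to 698.8 at E13.5, and Msi2 from 152.7 to 823.6 in tetO-Msi2 cells. With 4-OHT, Msi2 fell from 123.4 to 13.54 in C4 and stood at 156.7 and 201.4 in C1. Msi1 was at 29.5 and 28.1 in C4 without and with 4-OHT, so its mRNA level gives no check of its deletion; which exons are flanked by loxP is not given in the sources used here. The NSC markers Vim and Fabp7 were among the most abundant mRNAs of their list in every line, and the summed microglia and blood markers did not exceed 0.353 in any library.

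In NCBIM37 (mm9), the build of the files, Cdk1 lies on chromosome 10 at 68799383 to 68815686, Top2a on chromosome 11 at 98854257 to 98885503, Mki67 on chromosome 7 at 142881471 to 142908062, Plk1 on chromosome 7 at 129302951 to 129313389, Aurka on chromosome 2 at 172181690 to 172196035 and Ccnb1 on chromosome 13 at 101548605 to 101556525, and reads were counted over exons of each gene. All levels are given as this TMM-scaled RPKM, reads divided by the exon length listed for each gene and by library size, with libraries scaled by TMM (trimmed mean of M-values). In untreated E12.5 tet lines the mitosis genes were abundant. Their median level was 171.5 in KH2, 139.0 in tetO-Msi1 and 187.0 in tetO-Msi2 cells, while the median of the 12345 expressed genes was 36.2 to 36.5 in these libraries. The 4 highest members were Top2a at 610 ± 110 (SD, n = 3 lines), Ube2c at 586 ± 128, Cdk1 at 527 ± 99.5 and Cenpa at 461 ± 21.1. Top2a is the topoisomerase that untangles sister chromatids, Ube2c the ubiquitin-conjugating enzyme of the anaphase-promoting complex, and Cenpa the centromeric histone. Neighbours in this order differed by less than the wider of their SDs. The 4 lowest were Nek2, a centrosome kinase, at 70.4 ± 13.6, Ttk, a checkpoint kinase, at 68.9 ± 6.82, Espl1 at 38.4 ± 4.18 and Ccnb1 (cyclin B1) at 19.5 ± 3.38. Nek2 and Ttk did not differ beyond their spread, while Espl1 and Ccnb1 each lay lower than the next member by more than it.

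Ccnb1 was uncertain in RNA-Seq. Its coding sequence has 4 copies elsewhere in the mouse genome (NCBIM37) of 94.7% to 99.2% identity, 2 of them the annotated pseudogenes Gm5593 and Gm12856, so that reads can be shared between them. It had 216 RNA reads in the untreated E12.5 KH2 library, where the lowest count of a member was 171 (Birc5), while its 258 footprints there stood above the member median of 112.5. Copies of at least 90% identity over at least 200 bases also exist for Bub3, Cdc20, Cenpe, Kif2c, Mad2l1, Plk1, Prc1, Smc2 and Ube2c.

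**Figure D1:**
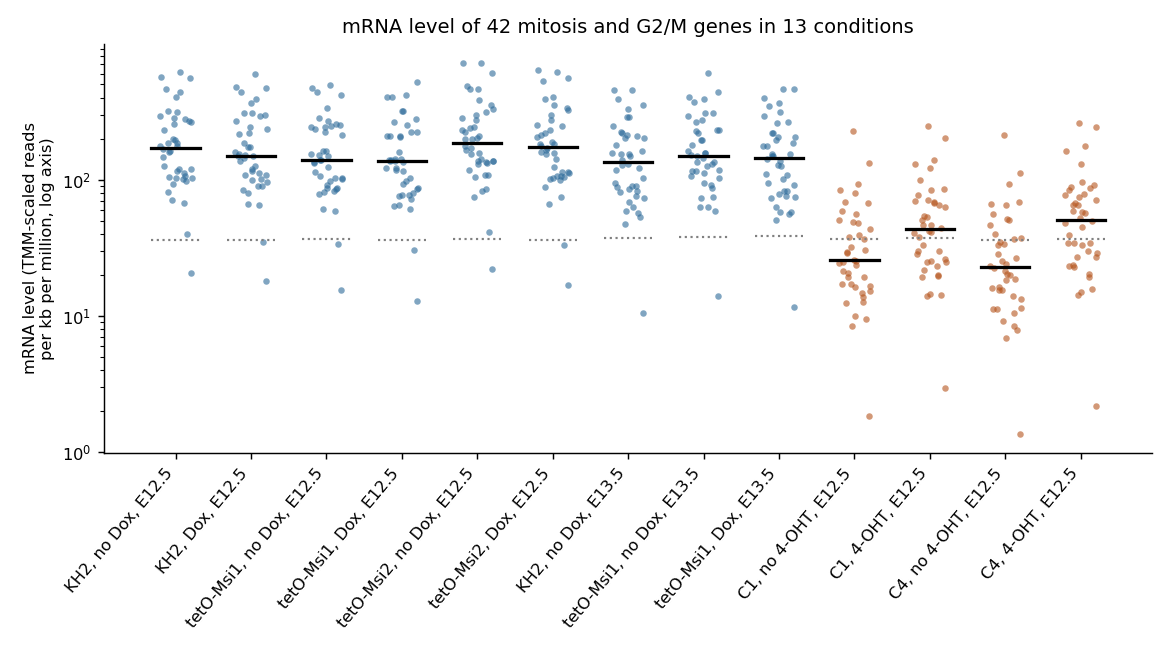
mRNA levels of the 42 mitosis and G2/M genes in the 13 RNA-Seq conditions, on a log axis in RPKM (TMM-scaled); each point is 1 gene, the bar is the members' median and the dotted mark the median of all 12345 expressed genes. The medians lie between 135.1 and 187.0 in the tet lines, and at 25.7 and 43.4 in C1 and 23.0 and 50.8 in C4 without and with 4-OHT.

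The floxed lines held far less mitotic mRNA than the tet lines. The members' median level was 25.7 in untreated C1 and 23.0 in untreated C4, and the members took 0.253% and 0.230% of the counted reads, against 1.28% to 1.68% in the 3 untreated tet lines of E12.5. The median place of a member among all expressed genes was at percentile 41.2 in C1 and 39.0 in C4, and at 84.9 to 88.9 in the untreated E12.5 tet lines. For 41 of the 42 members no floxed level, treated or untreated, reached the lowest level of any untreated E12.5 tet line. Bub3 was the member that overlapped. The same count was not made over all genes, so it is not set against a background. By the edgeR fit, a different measure, 33.3% of 12211 genes tested were called lower in the floxed lines and 33% higher.

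Among cyclins and Cdk1, Cdk1 mRNA was at 559.4 in KH2, 415.2 in tetO-Msi1 and 606.0 in tetO-Msi2, and at 132.9 in C1 and 111.7 in C4. Both floxed libraries were below each tet library, and the fitted difference (floxed against tet) was −2.11 on the log2 scale (SE 0.19, adjusted p = 0.000144, edgeR quasi-likelihood test with Benjamini-Hochberg adjustment, 2 lines against 3). Ccnb2 (cyclin B2) was at 233.0, 234.1 and 222.0 in the tet lines and at 21.2 and 11.2 in C1 and C4. This was the largest difference among the members, at −3.83 (SE 0.28, adjusted p = 7.62e-05). Ccnb1 was at 20.7, 15.6 and 22.1 against 1.8 and 1.4, a difference of −3.60 (SE 0.26, adjusted p = 7.05e-05). Foxm1, the transcription factor of G2/M genes, differed less, with 97.2, 87.0 and 108.5 against 30.6 and 26.8 (−1.77, SE 0.13, adjusted p = 6.89e-05).

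The kinases followed. Plk1 was at 199.3, 162.1 and 244.3 in KH2, tetO-Msi1 and tetO-Msi2 against 31.99 in C1 and 25.19 in C4, a log2 difference of −2.82 (SE 0.21, adjusted p = 7.76e-05). Aurka was at 175.7, 149.3 and 210.6 against 25.4 and 20.3 (−2.97, SE 0.19, adjusted p = 4.88e-05). Of the chromosome proteins, Mki67, the Ki-67 proliferation marker, was at 280.7, 253.7 and 311.1 against 36.7 and 36.8 (−2.94, SE 0.13, adjusted p = 2.28e-05), and Top2a at 614.7, 497.8 and 716.7 against 92.7 and 92.8 (−2.72, SE 0.18, adjusted p = 5.2e-05). In all 4 genes the floxed levels stood well below the lowest tet level, and C1 and C4 lay close to each other.

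Aspm, a spindle pole protein of neural progenitors, was at 103.0, 91.0 and 129.2 against 10.1 and 6.9 (log2 difference −3.67, SE 0.24, adjusted p = 5.17e-05), and Nusap1, a microtubule-bundling protein, at 320.9, 282.3 and 459.3 against 29.5 and 33.0 (−3.50, SE 0.24, adjusted p = 5.9e-05). Bub3, a checkpoint protein, was the exception, with 254.0, 223.1 and 296.9 in the tet lines and 227.3 and 213.9 in the floxed lines. Its groups overlapped, and its difference of −0.23 (SE 0.13) did not pass the test (adjusted p = 0.16).

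Of the 42 members tested, 41 were called lower in the floxed lines and 0 higher. Here and below, genes counted as higher or lower by a fit are those with an adjusted p under 0.05. Over all 12211 genes tested, 33.3% were lower and 33% higher, with a median difference near 0, while the members' median was −2.75 and their range −3.83 to −0.23. Beyond the genes with values above, the members' differences ran from −3.46 (Cenpf, a kinetochore protein) to −1.28 (Smc2, a condensin subunit). Median differences of the 6 roles lay between −2.98 and −2.61. The call for Pttg1 was lost when C4 was left out. Between E12.5 lines, time point (48 and 72 hours), depth and the share of library reads counted go together with the kind of line. These and genotype cannot be told apart within that comparison. The counted share was 28.2% to 34.1% in the floxed and E13.5 libraries and 14.9% to 15.8% in the E12.5 tet libraries. Untreated E13.5 tet cells, with a share like that of the floxed lines, had 27973879 (KH2) and 60791605 (tetO-Msi1) counted reads. Their member medians were 135.1 and 149.5, against 25.7 in C1 and 23.0 in C4. The part of depth and counted share in the difference was not tested.

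**Figure D2:**
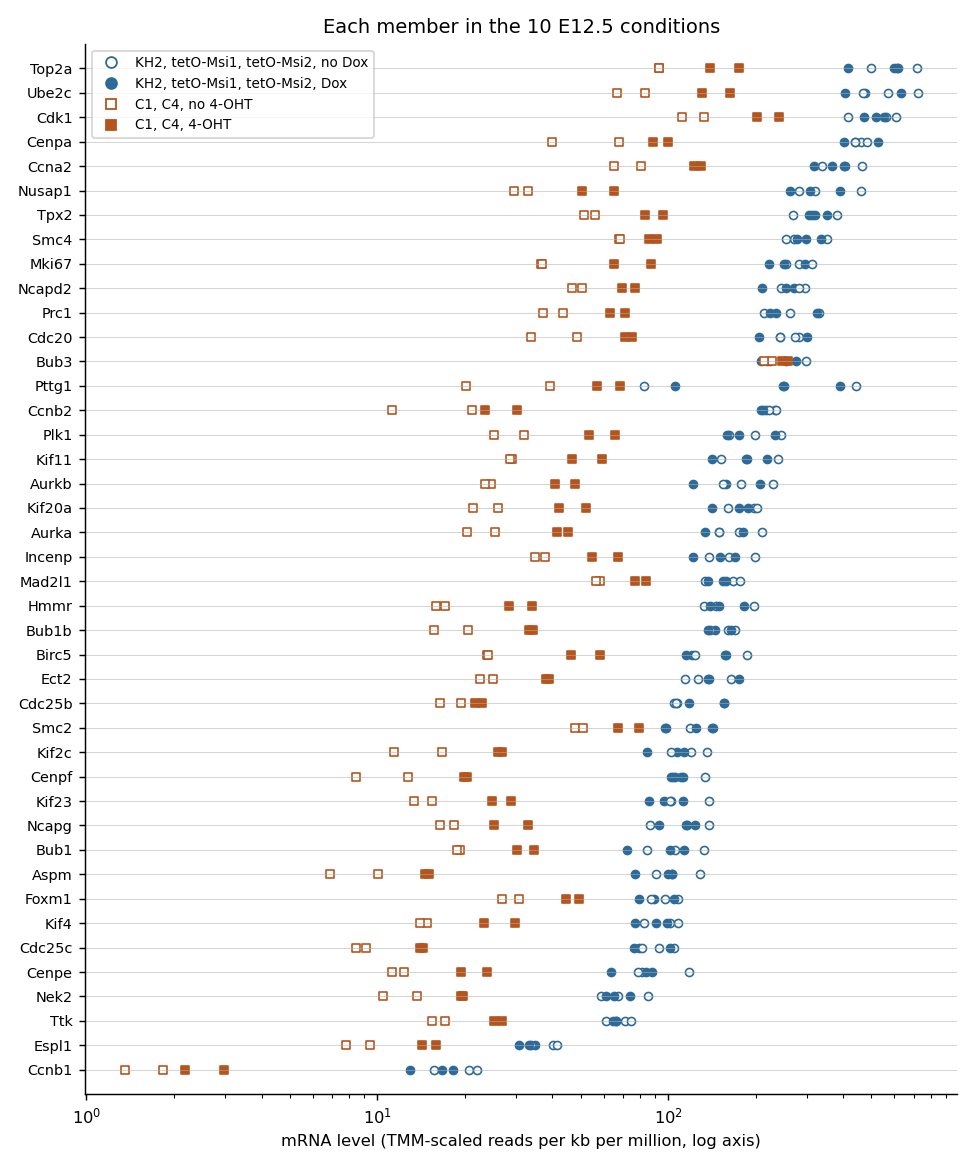
mRNA level of each member at E12.5, on a log axis in TMM-scaled RPKM and ordered by the mean level in the untreated tet lines; circles are KH2, tetO-Msi1 and tetO-Msi2 cells and squares C1 and C4 cells, open without and filled with Dox or 4-OHT, and each point is 1 condition. The squares lie below all circles for the members other than Bub3, and within each floxed line the filled square lies above the open one.

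Other cell cycle lists were compared with the same fit. Of 72 further mitosis and G2/M genes tested, 66 were lower and 2 higher, with a median of −2.31. The largest falls were those of Psrc1 (−4.54), a spindle protein, and Kif14 (−4.39), a cytokinesis kinesin, and the 2 genes that rose were Kif2a (0.73) and Zwint (0.47). Genes of DNA replication and G1/S did not follow as a list, with 22 of 45 higher and 7 lower and a median of 0.50. Over all genes 33% were higher and 33.3% lower. Ccnd1 (cyclin D1) was higher by 3.14 and Cdc6, which loads the replicative helicase, by 2.45, while Rrm1 (−1.11) and Rfc2 (−0.87) were lower. Of 14 cell cycle inhibitors 12 were lower and 0 higher (median −1.73), among them Btg2 (−3.84) and Cdkn1c (−2.87). Of 13 subunits and regulators of the anaphase-promoting complex 7 were lower and 2 higher (median −0.41). Of 16 cell cycle transcription regulators 6 were higher and 4 lower (median 0.15), with E2f4 (1.52) and Tfdp1 (1.51) highest and E2f8 (−1.63) and Tfdp2 (−1.14) lowest.

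Some markers of other cell types also differed with the kind of line. The summed level of 10 neuron markers was 152 to 217 in the untreated E12.5 tet lines and 346 to 377 in the floxed lines, and that of 8 glia markers 2087 to 2933 and 3054 to 3255. Gfap, the intermediate filament of astrocytes and part of the glia sum, was at 0.1 to 5.9 in the tet lines and at 183.6 in C1 and 473.1 in C4. In untreated E13.5 cells the glia sum was 3616 in KH2 and 2926 in tetO-Msi1, so it did not separate the kinds of line over both stages. By the fit, 4 of 8 glia markers were higher and 0 lower, with a median of 0.27 and a range of −0.73 to 6.40. Of 8 neuron markers tested 5 were higher and 1 lower, beside 33% and 33.3% of all genes. In footprints, of 6 glia markers tested 1 was higher and 2 lower, with a median of −0.48. Of 5 neuron markers tested in footprints 4 were higher and 0 lower, beside 20.6% and 20.9% of 8039 genes. The sum of 10 NSC markers did not separate the lines (14734 to 17931 against 16342 to 16994), although Hes5, a Notch target, was lower in the floxed lines (−4.90 on the log2 scale). The sum of 7 fibroblast markers was 10.8 to 12.2 against 33.0 to 42.5, most of it Foxc1. The neuron markers Neurod6 and Tbr1 stayed under 0.4 throughout. The part of these cells in the difference was not tested.

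Footprints differed in the same direction. Of 37 members with enough reads, 36 had fewer footprints in the floxed lines, and 34 were called lower (20.9% of 8039 genes were called lower). The median log2 difference was −2.46. Mki67 footprints differed by −3.77 (SE 0.29, adjusted p = 6.5e-06) and Top2a footprints by −3.24 (SE 0.23, adjusted p = 5.19e-06). Translational efficiency (TE), the footprint level divided by the mRNA level, had a median difference of 0.15 over the members. It was higher in the floxed lines for Kif23, a central spindle kinesin (1.38, SE 0.37, adjusted p = 0.0117), Ccnb1 (1.15, SE 0.29, adjusted p = 0.00733), Cenpf (1.13, SE 0.29, adjusted p = 0.00825) and Smc2 (0.92, SE 0.28, adjusted p = 0.024), and lower for the condensin subunit Ncapd2 (−1.19, SE 0.24, adjusted p = 0.000784), Mki67 (−0.93, SE 0.24, adjusted p = 0.00843) and Top2a (−0.70, SE 0.23, adjusted p = 0.0392). These 7 of 37 stand beside 6.3% of 7156 genes with a higher and 7.78% with a lower TE. The Ccnb1 value rests on an mRNA level that its copies make uncertain.

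With 4-OHT, mitotic mRNAs rose in both floxed lines. All 42 members were higher with 4-OHT than without in C1 and in C4. In the fit of both lines, with the line as a block, 39 of 42 members rose and 0 fell, by a median of 0.81 on the log2 scale, while 3.14% of the 11626 genes tested rose and 2.36% fell, with a median near 0. The share of counted reads taken by the members went from 0.253% to 0.377% in C1 and from 0.230% to 0.432% in C4. With 4 libraries the fit had 1 residual degree of freedom per gene, and the lines served as repeats, so the p-values measure the spread between these libraries.

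Pttg1, securin, rose most in the fit. Its mRNA level went from 39.3 to 68.1 in C1 and from 20.1 to 57.1 in C4, a fitted change of 1.13 (SE 0.18, adjusted p = 0.0107). Birc5 (survivin), of the chromosomal passenger complex, went from 23.9 to 46.2 and from 24.1 to 58.2 (1.11, SE 0.22, adjusted p = 0.0251). Plk1 went from 31.99 to 53.54 and from 25.2 to 65.5 (1.05, SE 0.13, adjusted p = 0.00561). Mki67 went from 36.7 to 64.9 and from 36.8 to 87.3 (1.03, SE 0.09, adjusted p = 0.00298). In each of the 4 genes both treated levels lay above both untreated levels.

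Of the other members always followed, Cdk1 went from 132.9 to 202.5 in C1 and from 111.7 to 241.4 in C4 (0.85, SE 0.11, adjusted p = 0.00572), and Top2a from 92.7 to 138.7 and from 92.8 to 175.8 (0.75, SE 0.08, adjusted p = 0.00434). Aurka went from 25.4 to 41.4 and from 20.3 to 45.3 (0.93, SE 0.12, adjusted p = 0.00572). The levels with 4-OHT stayed below the untreated tet lines in all 3. The called members that rose least were Smc4 (0.38, SE 0.06, adjusted p = 0.0115), the condensin ATPase, and Mad2l1 (0.48, SE 0.09, adjusted p = 0.0206), the checkpoint protein Mad2.

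At the kinetochore, Bub1b, the checkpoint protein BubR1, went from 20.6 to 33.2 in C1 and from 15.6 to 34.2 in C4 (0.91, SE 0.10, adjusted p = 0.00486), and Cenpe from 12.4 to 19.4 and from 11.2 to 23.9 (0.86, SE 0.10, adjusted p = 0.00486). Among the spindle motors, Kif20a, which acts in cytokinesis, went from 25.9 to 42.2 and from 21.3 to 52.2 (0.99, SE 0.12, adjusted p = 0.00561). The smaller fold of C1 was seen in each of them. Of the anaphase genes, Ube2c went from 83.5 to 130.5 and from 66.6 to 163.5 (0.96, SE 0.14, adjusted p = 0.00824), and Cdc20 from 48.7 to 71.0 and from 33.7 to 75.0 (0.84, SE 0.14, adjusted p = 0.0148). Both treated levels lay above both untreated levels in all 5 genes, which were added here after their values were seen.

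The 3 members that did not pass were Bub3 (0.19, SE 0.06, adjusted p = 0.138), Cdc25b (0.32, SE 0.11, adjusted p = 0.166) and Ccnb1 (0.69, SE 0.25, adjusted p = 0.169). Bub3, already high in the floxed lines, went from 227.3 to 247.2 and from 213.9 to 258.6. By role, 5 of 7 cyclins, Cdk1 and its activators rose (median 0.71), as did 6 of 6 kinases and passenger proteins (0.90), 7 of 8 kinetochore and checkpoint proteins (0.80), 11 of 11 spindle and cytokinesis proteins (0.87), 6 of 6 chromosome proteins (0.66) and 4 of 4 anaphase proteins (0.90). DESeq2 called 37 of the same 39, losing Birc5 and Cdc25c. Without the line as a block edgeR called 0 of 11626 genes, with 39 members at an unadjusted p under 0.05 (1124 genes in all).

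The rise was larger in C4, the line with Cre, than in C1. Within C1 23 of 42 members rose at least 1.5-fold and 0 fell (1.37% and 1.67% of 12018 genes), with a median of 0.61 and a range of 0.12 to 0.94. Within C4 37 rose at least 1.5-fold and 0 fell (4.02% and 4.25% of 11939 genes), with a median of 1.01 and a range of 0.27 to 1.48. The change in C4 exceeded that in C1 for 40 of 42 members, by a median of 0.38, and for 39 of them the 95% counting interval of the difference lay above 0. Over all genes the median of this difference was near 0, and 51.1% of genes had a larger change in C4. These intervals cover counting error only, and with 1 library per condition the difference between the lines was not tested over samples.

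**Figure D3:**
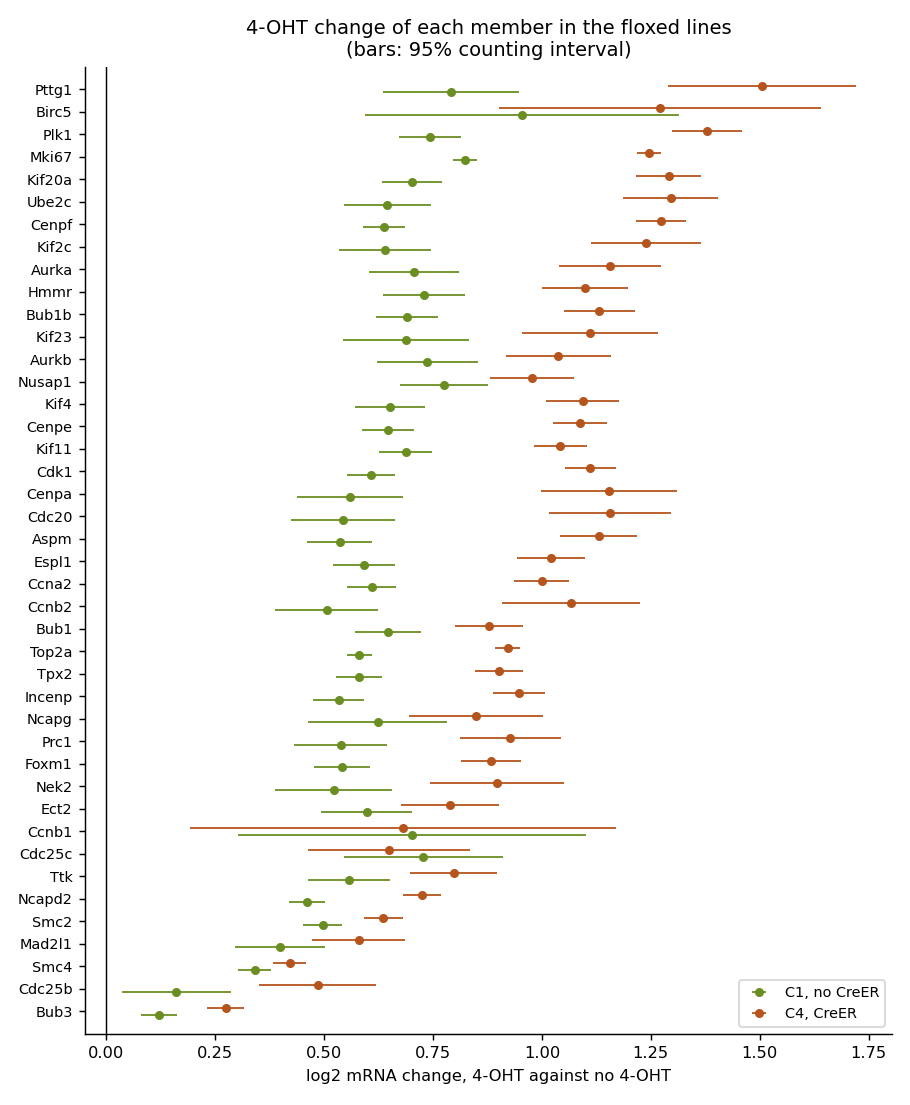
log2 mRNA change with 4-OHT of each member in C1 (no Cre) and in C4 (with Cre), with 95% intervals from the read counts, ordered by the sum of both changes. All points lie above 0, and 40 of the 42 C4 values are higher than the C1 values.

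Related lists rose with 4-OHT as well. Of 69 further mitosis and G2/M genes tested 51 rose and 0 fell (median 0.66), led by Fam64a (1.07) and Ska1 (1.01). Of 45 DNA replication and G1/S genes 32 rose and 0 fell (median 0.47), led by Rrm2 (0.76) and Mcm10 (0.73). As a list they moved with the members here but did not follow them between the kinds of line. Of 16 transcription regulators 6 rose (median 0.27), E2f8 (0.80) and E2f7 (0.66) most. Of 14 cell cycle inhibitors 2 rose, Rbl1 (0.50) and Cdkn2c (0.46), and of 13 anaphase-promoting complex genes 1, Fbxo5 (0.65). Of the cell type markers, 0 of 10 NSC and 0 of 8 neuron markers were called by edgeR, with 4 and 1 at an unadjusted p under 0.05, and of 8 glia markers Olig1 rose (0.36) and Aqp4 fell (−0.53). The summed neuron markers went from 346 to 343 in C1 and from 377 to 290 in C4, and the summed glia markers from 3255 to 3473 and from 3054 to 3408; their part in the rise of the members was not tested.

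Footprints rose with 4-OHT about as far as mRNA. Of 37 members with enough reads 4 were called, all higher (1.09% of 9239 genes were called higher), and 23 had an unadjusted p under 0.05 (913 genes in all). The median footprint change was 0.81 over the 37 members, beside −0.002 over all genes tested. Nusap1 footprints went from 223 to 163 reads in C1 and from 49 to 94 in C4, in libraries of 5859626, 2066616, 1691703 and 1489792 reads, which is a change of 1.18 (SE 0.27, adjusted p = 0.0272) after scaling. Cdc20, the activator of the anaphase-promoting complex, changed by 0.98 (SE 0.22, adjusted p = 0.0255), the kinetochore kinesin Cenpe by 0.93 (SE 0.23, adjusted p = 0.0487) and Mki67 by 0.70 (SE 0.15, adjusted p = 0.0181). Within the pairs, 40 of 42 members had more footprints with 4-OHT in C1 (median 0.63), and 35 of 37 in C4 (median 0.97). These directions within pairs were not counted over all genes, so they are not set against a background.

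TE did not change detectably for the members as a group. The median TE change of the 37 members was −0.05. The edgeR test called 0% of 8255 genes, among them 0 members, and 2 members had an unadjusted p under 0.05 (744 genes in all). These were Cenpf (−1.16, SE 0.34, adjusted p = 0.547) and the spindle kinesin Kif11 (−0.51, SE 0.20, adjusted p = 0.55). The highest values were those of Birc5 (0.98, SE 0.55), Cdc25b (0.78, SE 0.35) and Smc4 (0.57, SE 0.24). Cdk1 stood at −0.07 (SE 0.23), Plk1 at −0.17 (SE 0.31), Aurka at −0.09 (SE 0.38), Top2a at −0.17 (SE 0.26), Mki67 at −0.33 (SE 0.17) and Ccnb1 at 0.03 (SE 0.25).

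Within C1, TE changed at least 1.5-fold for 5 of 42 members, 4 of them upward, beside 25% of 9383 genes. Birc5 was highest at 2.02 (95% counting interval 0.71 to 3.33), from 7 and 18 footprints, followed by Kif2c (1.25), Cdc25b (0.98) and Smc4 (0.65), and Cenpf was lowest (−0.74). Within C4, it changed for 8 of 37, 4 upward and 4 downward, beside 29% of 8463 genes. Aspm was highest (1.27, from 19 and 83 footprints), then Mad2l1 (0.82), Cenpa (0.77) and Ncapd2 (0.60), and Cenpf (−1.65, from 47 and 30), Kif23 (−1.58, from 35 and 21), Top2a (−0.88) and Ccna2 (−0.84) were lowest. Cenpf was the only member past the limit in the same direction in both lines, a choice made after the values were seen. Under the study's limits for a translational target, a TE change of at least 3-fold with an mRNA change under 1.5-fold, 0 members qualified in either line, but only 17 members in C1 and 4 in C4 met the mRNA limit. In C4, Cdc25c, Nek2, Kif2c, Prc1 and Pttg1 had 5 reads or fewer in a Ribo-Seq library and were left out.

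**Figure D4:**
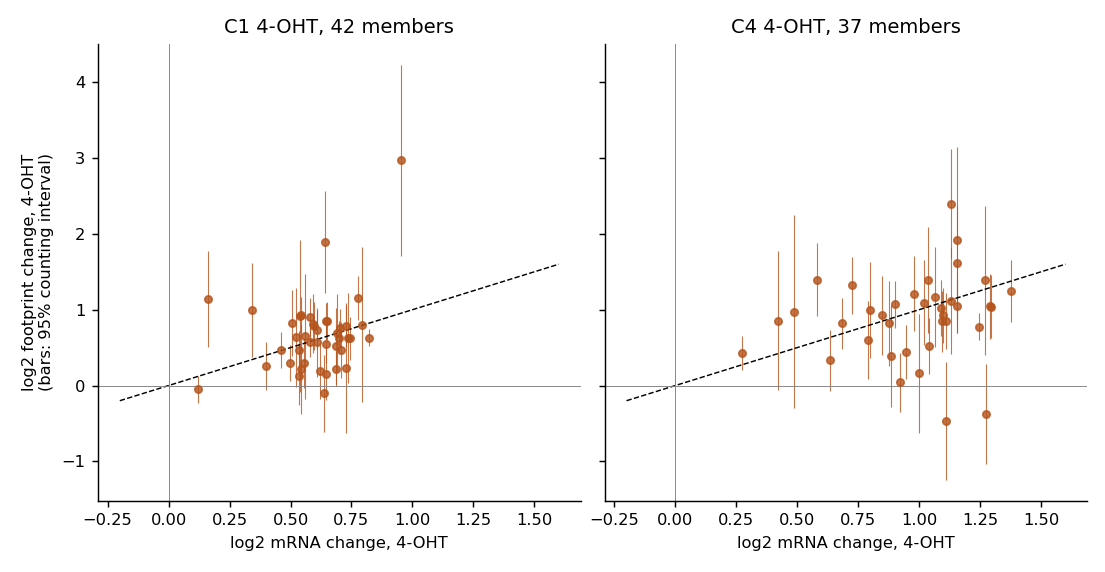
log2 footprint change with 4-OHT (vertical axis, bars give the 95% counting interval) against log2 mRNA change (horizontal axis) for 42 members in C1 and 37 in C4; each point is 1 gene and the dashed line marks equal change. The points lie on both sides of the line, with footprint medians of 0.63 (C1) and 0.97 (C4), and 2 members in each line had a footprint change below 0.

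With Dox, mitotic mRNA moved little in the tet lines. KH2 cells, which have no transgene, also had a member median below 0, given below with the single pair of tetO-Msi2. In tetO-Msi1 cells, tested over E12.5 and E13.5 with the stage as a block, 1 of 42 members passed, beside 3.6% of 11938 genes, and 34 of 42 values lay below 0 with a median of −0.10 (−0.01 over all genes). The member was Cenpe, which went from 78.9 to 63.7 at E12.5 and from 116.3 to 73.1 at E13.5 (−0.49, SE 0.15, adjusted p = 0.0397). DESeq2 did not call it. Aspm (−0.38, SE 0.15, adjusted p = 0.167) and Kif23 (−0.35, SE 0.16, adjusted p = 0.255) had the next lowest values, and Pttg1 (0.21), Cdk1 (0.21) and Tpx2 (0.15), a spindle assembly factor, the highest.

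Cdk1 was at 415.2 without and 518.8 with Dox at E12.5 in tetO-Msi1 cells, and at 436.5 and 464.2 at E13.5 (adjusted p = 0.589). Top2a went from 497.8 to 416.0 and from 600.8 to 460.1 (−0.32, SE 0.14, adjusted p = 0.255), and Mki67 from 253.7 to 222.5 and from 307.8 to 266.0 (−0.20, SE 0.14, adjusted p = 0.569). Top2a and Mki67 were lower with Dox at both stages, and Cdk1 was higher at both. Changes of Plk1 (−0.01, SE 0.15), Aurka (−0.23, SE 0.15) and Ccnb1 (−0.27, SE 0.21) did not pass either.

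Across KH2, tetO-Msi1 and tetO-Msi2 at E12.5, where KH2 has no transgene, Dox gave 0 of 42 called members by edgeR, beside 0.451% of 11969 genes. At an unadjusted p under 0.05 there were 15 members (1653 genes in all). DESeq2 called 0 members, with 10 at an unadjusted p under 0.05 (869 genes in all). The median was −0.12, and 36 of 42 values lay below 0. The lowest were Ccnb1 (−0.28, SE 0.13), Birc5 (−0.25, SE 0.16) and the microtubule depolymerase Kif2c (−0.23, SE 0.07), and the highest Ect2 (0.16, SE 0.08), which acts in cytokinesis, Smc4 (0.07) and Cdc25b (0.06). Of the members, 23 were lower with Dox in all 3 lines and 3 higher in all 3, KH2 included, and 19 were lower and 1, Cdc25b, higher when the E13.5 pair was added. These directions were not counted over all genes, so they are not set against a background.

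Within single pairs few members passed 1.5-fold. With Dox in KH2, 0 rose and 1 fell, Birc5 from 186.4 to 120.6 (2.47% and 2.18% of 12142 genes rose and fell), and the median was −0.11. In tetO-Msi1 of E12.5, 0 rose and 0 fell (4.67% and 4.94% of 12229), with a median of −0.10, and in tetO-Msi2, 0 and 0 (4.04% and 3.74% of 12043), with a median of −0.14. In tetO-Msi1 of E13.5, 0 rose and 3 fell (5.57% and 4.98% of 11949), with a median of −0.17. The 3 were the condensin subunit Ncapg, from 94.8 to 58.3, Cenpe, from 116.3 to 73.1, and Kif11, from 228.0 to 149.99.

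**Figure D5:**
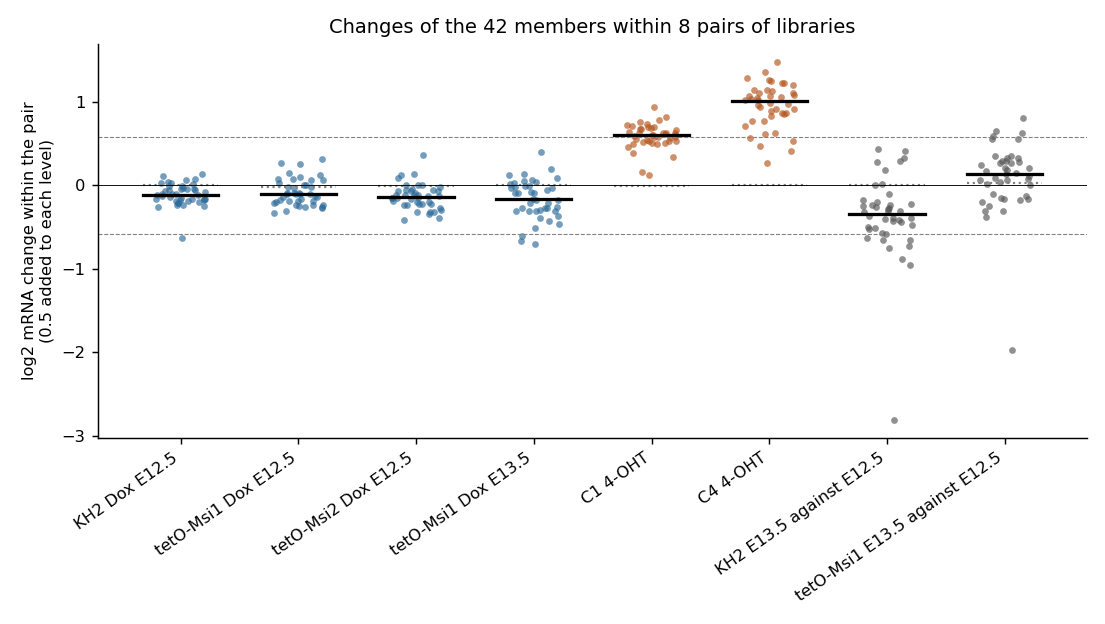
log2 mRNA change of the 42 members within each pair of libraries, 4 pairs with Dox, 2 with 4-OHT and 2 stage pairs; each point is 1 gene, the bar the members' median, the dotted mark the median of all genes and the dashed lines a 1.5-fold change. The 4 Dox medians lie between −0.17 and −0.10, the 4-OHT medians at 0.61 and 1.01, and the stage medians at −0.34 (KH2) and 0.14 (tetO-Msi1).

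Footprints and TE changed as little with Dox. For footprints, 0 of 41 members in KH2 and tetO-Msi1 were called by edgeR, beside 0.566% of 7242 genes. At an unadjusted p under 0.05 were 2 members (385 genes in all), and the members' median was −0.09. For TE, 0 of 41 members were called, beside 0.0155% of 6442 genes, and the members' median was −0.03. Only Ncapg (−0.57, SE 0.20) had an unadjusted p under 0.05 (230 genes in all). Within KH2, TE changed at least 1.5-fold for 2 of 41 members, both downward, Nek2 (−0.70) and Mad2l1 (−0.69), beside 23.3% of 7027 genes. Within tetO-Msi1 it changed for 4 of 41, beside 22.3% of 7049 genes. Pttg1 was higher by 1.49, from 13 and 11 footprints, and Cdc25c (−1.02), Ncapg (−0.81) and Bub1 (−0.78), a checkpoint kinase, were lower. Under the study's 3-fold limits 0 members qualified in either line.

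Lists outside the members changed in few genes with Dox. In tetO-Msi1 cells over both stages, of 72 further mitosis genes only Mastl, a kinase that opposes phosphatase PP2A in mitosis, was called (−0.58), and of 45 G1/S genes Ccnd2 (0.74) and Rpa2 (0.55) rose and Tyms (−0.65) fell. The glia markers Gfap (−0.77) and Pdgfra (−0.54) and the neuron markers Snap25 (−1.49) and Gap43 (−0.79) fell. Across the 3 lines of E12.5, Fam83d (−0.37) fell and Ccnd2 (0.48) rose.

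Between E12.5 and E13.5 untreated cells differed widely, and the mitosis genes did not move as one. In KH2 and tetO-Msi1, with line as a block, 5 of 42 members were higher and 10 lower at E13.5, beside 25.6% and 25.2% of 11893 genes, and their median was −0.09. Pttg1 fell most, from 442.1 to 62.6 in KH2 and from 248.5 to 62.8 in tetO-Msi1 (−2.41, SE 0.18, adjusted p = 2.76e-06). It was at 82.3 in untreated tetO-Msi2 cells of E12.5, so that the 3 tet lines of E12.5 were spread over a wider range in Pttg1 than E13.5 cells. Bub1 went from 105.7 to 57.1 and from 84.9 to 75.1 (−0.55, SE 0.15, adjusted p = 0.0113), Hmmr, a microtubule-binding protein, from 145.8 to 94.1 and from 132.6 to 106.9 (−0.49, SE 0.11, adjusted p = 0.00468), and Ccnb1 from 20.7 to 10.5 and from 15.6 to 13.9 (−0.57, SE 0.22, adjusted p = 0.0467). Also lower were Smc4, Cdc25c, Kif20a, Ccnb2, Cdc20 and Nusap1, with changes from −0.45 to −0.32.

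Espl1, separase, rose most, from 40.1 to 53.5 in KH2 and from 33.6 to 59.3 in tetO-Msi1 (0.60, SE 0.12, adjusted p = 0.00175). Incenp, a passenger complex subunit, went from 161.9 to 218.6 and from 138.6 to 218.9 (0.53, SE 0.11, adjusted p = 0.00191), and Foxm1 from 97.2 to 121.8 and from 87.0 to 135.0 (0.46, SE 0.11, adjusted p = 0.00559). Nek2 (0.41, SE 0.12, adjusted p = 0.0143) and Cdc25b (0.30, SE 0.11, adjusted p = 0.0419) also rose. In Espl1, Incenp and Foxm1 the E13.5 levels lay above both E12.5 levels of these lines. Cdk1 (−0.31, SE 0.15, adjusted p = 0.109), Mki67 (−0.09), Top2a (−0.09), Plk1 (0.13) and Aurka (−0.10) did not pass. The 2 stages came from separate cultures and their libraries differ in the share of reads counted, so stage and experiment cannot be told apart.

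The members' median stage change had opposite signs in the 2 lines, without a test of the difference. This median was −0.34 in KH2 and 0.14 in tetO-Msi1. The values had opposite signs for 22 of 42 members, and the others moved the same way in both lines. For 19 of the 42 the intervals, which cover counting error only, also lay on opposite sides of 0. How often this held over all genes was not counted. G1/S genes moved more uniformly, with 35 of 45 higher at E13.5 and 0 lower (median 0.83), led by Ccnd1 (2.40) and Mcm2 (2.08). Of 72 further mitosis genes 11 were higher, Spc24 (1.23) and Pkmyt1 (1.21) most, and 17 lower, Cenpp (−1.02) and G2e3 (−1.01) most. Of 16 transcription regulators 7 were higher and 2 lower (median 0.35), with Mybl2, the B-Myb factor of G2/M genes, at 1.42. Of 14 inhibitors 3 were higher and 8 lower (median −0.65), and the glia marker Gfap was higher by 3.75.

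Absolute TE could be set between genes only for 15 members, whose RNA length equals the footprint exon length less 40 nt per exon. Their mRNA reads were divided by this shorter length and their footprints by the full one. The order between genes was not corrected for this. Over the 4 untreated Ribo-Seq lines the log2 TE was highest for Birc5 (0.58 ± 1.37, SD, n = 4), Kif4 (−0.47 ± 0.27), Mad2l1 (−0.48 ± 0.40) and Plk1 (−0.59 ± 0.33), and lowest for Foxm1 (−2.13 ± 0.37), Ncapd2 (−1.34 ± 0.70), Aspm (−1.32 ± 0.48) and Espl1 (−1.15 ± 0.40). The median of 3098 genes was −0.83. Foxm1 stood at a mean percentile of 8.67 among these genes, and Birc5 at 78.4 with the widest spread, from −1.46 in C1 to 1.45 in KH2. Neighbours in this order did not differ beyond the wider of their spreads over the lines, apart from Foxm1 and Ncapd2. Birc5 rests on few bases, a length of 71 nt in RNA-Seq and 111 nt in Ribo-Seq.

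Musashi proteins are known to bind UAG-containing sites in 3′ UTRs. The letters GUAGU or AUAGU were present in the longest annotated 3′ UTR of 26 of 42 members (61.9%), beside 59.2% of 17734 genes with a 3′ UTR of at least 50 nt, and their median density was 1.11 per kb against 0.815. Nusap1 had the most, 10 sites in 2255 nt, followed in density by Smc2 with 7 in 1605 nt. The 3′ UTRs of Aurka, Birc5, Mki67, Plk1 and 12 other members held none.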

How the data were processed

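The data were 14 RNA-Seq and 8 Ribo-Seq libraries from NSCs. The authors deposited read counts per Ensembl gene, not normalized, and an RPKM per gene, which divides each count by an exon length and by a read number larger than the sum of the counts. Per the submitters' processing notes Bowtie, TopHat and mm9 were used; versions are not given in the sources used here. All per-sample columns were mapped.

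Members, roles and lists were chosen with earlier results of these data known. The technical pair (chi-square per degree of freedom 1.68 over 13207 genes, so above sampling noise) was summed and counted as 1 library. Counts were scaled by TMM and tested with edgeR 4.0.16 (quasi-likelihood, genes kept at a CPM of 1 or more in 2 libraries, line or stage as a block, except for floxed against tet lines) and Benjamini-Hochberg adjustment over all genes, with a threshold of 0.05. TE was tested as the interaction of assay and treatment, in genes with more than 5 reads in each library. Repeats were lines or stages, so p-values measure the spread between these libraries only. Within a pair of single libraries there is no test: changes have 95% intervals from the counts, which cover counting error only, and changes of at least 1.5-fold were counted after 0.5 was added to each level. Named genes were, per comparison, members past the threshold (beyond 8, the 4 largest rises and falls; with few, the 3 highest and lowest), Ccnb1, Cdk1, Mki67, Top2a, Plk1 and Aurka, and the 2 largest changes of each list in each direction. Copies of coding sequences were found with minimap2 2.31. The steps were tested on simulated counts. Other software was R 4.3.3 with DESeq2 1.42.0, and Python 3.11.15 with pandas 2.3.3 and scipy 1.17.1. Alternatives were deposited RPKM, other size factors, pseudocounts, filters, fold limits, DESeq2, no block and leaving out each line. Replacing mRNA counts with footprint counts or TE was added after seeing the data.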

Additional observations from a re-analysis of the deposited data

Results flagged for a closer look

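Some changes had opposite signs in different lines under the same contrast. Each rests on 1 library per condition, so these differences were not tested. From E12.5 to E13.5 the median log2 mRNA change of the 42 members was −0.338 in untreated KH2 cells and 0.142 in untreated tetO-Msi1 cells. Cdk1 changed by −0.658 in KH2 and 0.0723 in tetO-Msi1, Mki67 by −0.435 and 0.279, Top2a by −0.426 and 0.271, and Aurka by −0.231 and 0.0702.

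With Dox at E12.5, Cdk1 changed by −0.250 in KH2 and 0.321 in tetO-Msi1 cells. Mki67 changed by 0.0716 in KH2, −0.190 in tetO-Msi1 and −0.320 in tetO-Msi2 cells.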

How the results depend on the processing

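Under the alternatives run, 90 of the values that answer a comparison kept their direction and size and 35 moved, while of single-gene values 350 kept their direction and side of the threshold, 14 lost the call and 2 reversed. Those 2 were the Dox change of Cdk1 across the 3 lines, which was 0.096 without KH2, 0.039 without tetO-Msi2 and −0.192 without tetO-Msi1. Treated and untreated libraries were paired by line or stage, since the labels carry no replicate numbers shared between groups. Each condition has 1 library, and fits of 4 libraries leave 1 residual degree of freedom.

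With a 2-fold limit, 0 members changed in mRNA with Dox in KH2 or in tetO-Msi1 of E13.5, 0 with 4-OHT in C1 and 21 in C4. With deposited RPKM, 1 changed in tetO-Msi1 of E13.5. The same scale shifts the median of all genes by 0.998 (KH2) and 0.860 (tetO-Msi1) between stages and the TE of all genes in C1 by −1.46, so that 39 members passed 1.5-fold in C1 TE, and 1 in KH2 TE. For TE, a 2-fold limit left 0 members in KH2, 2 in tetO-Msi1, 2 in C1 and 3 in C4, a 3-fold limit 0, 0, 1 and 1, and more than 20 reads left 2 in tetO-Msi1. With more than 20 reads the Dox TE test called 0 genes.

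For Dox in tetO-Msi1, DESeq2 called 0 members and 104 genes, and the fit without the stage block 0 and 0. For Dox in 3 lines, no filter gave 437 genes, no block 0 genes, and leaving out a line 24 to 510 genes (510 without KH2, 96 without tetO-Msi1, 24 without tetO-Msi2) and 0 to 1 members (Cenpe, without KH2). For 4-OHT, no filter gave 1254 genes, no line block 0 members and 0 genes, and footprint counts 4 members and 117 genes. For floxed against tet lines, footprint counts gave 3336 genes and TE 7 members and 1008 genes, and leaving out a line gave 40 to 41 members. The cause was not tested.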
